A study of Homo sapiens with 10 samples.

Results

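The 9 genes described here encode transcription factors of the MYC network. They are the activator MYC, its partner MAX, the repressors MXD1, MXD3, MXD4, MXI1 and MNT, and the parallel pair MLX and MLXIP (also called MondoA). They were chosen by gene symbol after Ensembl identifiers were matched to GENCODE, and 9 of 63299 genes in the count tables are members. Each of the 9 was among the 16143 genes that had enough counts to be tested.

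Every protein of this network has a basic helix-loop-helix leucine zipper domain and binds the E box CACGTG as a dimer. MYC needs MAX to bind DNA and to activate genes for growth, ribosome production and metabolism, while MXD1, MXD3, MXD4, MXI1 and MNT compete for MAX and bring the SIN3 corepressor with its histone deacetylases to many of the same sites. MLX pairs with MLXIP, which responds to glucose-derived metabolites, and also with some of the repressors, so the arms of the network share partners. MYC is amplified or overexpressed in many tumours, osteosarcoma among them.

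The cells were U2OS, a human line derived from an osteosarcoma, collected for RNA-sequencing 48 h after transfection with a pool of control siRNAs (siCtrl, 5 libraries) or with a pool of siRNAs against the helicase gene DDX41 (siDDX41, 5 libraries). Both groups come from the same line and, by their labels, differ only in the knockdown. Libraries were made from polyadenylated RNA, and between 21807041 and 24896398 reads were counted in genes per library. The labels number the replicates but do not say that they are separate cultures, so p-values measure only the spread between these libraries, which may be technical.

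DDX41 checks the labels. Its level in CPM (counts scaled to the library size with TMM factors) was 49.1, 49.4, 47.3, 47.2 and 50.5 in siCtrl libraries 1 to 5 and 11.5, 13.7, 12.4, 11.2 and 12.3 in siDDX41 libraries 1 to 5. Every siDDX41 library was below every siCtrl library, with a log2 fold change of -1.99 (SE 0.049, adjusted p = 4.47e-24). The first principal component held 76.0% of the variance over all tested genes and separated the groups.

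The markers of the line were also read. The mesenchymal markers SPARC, VIM, COL1A1 and FN1 were abundant, at 2807, 2465, 1875 and 1672 CPM in siCtrl, and RUNX2, the osteoblast regulator, was at 32.4 CPM, whereas COL1A2 was near 0 (0.448 CPM in siCtrl and 0.316 in siDDX41). Of the mesenchymal list 5 of 6 genes were tested, 1 rose (SPARC) and 2 fell (VIM and RUNX2). The summed level of 4 epithelial markers lay between 8.65 and 9.66 CPM in siCtrl and between 8.64 and 10.7 CPM in siDDX41, most of it EPCAM, and neither of the 2 tested genes, EPCAM and CDH1, was called. The sum of 4 leukocyte markers lay between 0.653 and 1.21 CPM over the 10 libraries, and CD3E was listed at 0 in each library. PTPRC, the 1 tested gene, was not called (log2 fold change 0.69, adjusted p = 0.0228). It was called as higher at an adjusted p under 0.05. The sum of 4 endothelial markers, most of it VWF, was lower in siDDX41 (1.66 to 2.94 CPM) than in siCtrl (4.86 to 6.01 CPM), and both tested genes fell (VWF by 0.99 and CDH5 by 1.49 on the log2 scale), while PECAM1 (0.303 and 0.0600 CPM) and KDR (0.374 and 0.0786 CPM) were near 0. The part of the endothelial markers in the other results was not tested.

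A gene is called here when its p-value from the quasi-likelihood F test of edgeR, adjusted by Benjamini-Hochberg over all 16143 tested genes, is under 0.01. Of the 9 network genes, 8 were called. MYC, MXD1, MXI1 and MNT rose, MAX, MXD3, MXD4 and MLXIP fell, and MLX was not called. This has to be read against a large response, since 62.4% of all tested genes were called, 30.3% as higher and 32.1% as lower. With an added minimum of 0.25 for the absolute log2 fold change, 6 of the 9 were called (MAX and MNT no longer), beside 46.5% of all tested genes. The 5 siCtrl and 5 siDDX41 values did not overlap in 6 of the 9, beside 55.9% of all tested genes. The median absolute log2 fold change was 0.35 over the members and 0.28 over all tested genes. Being called is therefore the usual state of a gene in this comparison, and the directions and sizes within the network are what is described.

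**Figure D1:**
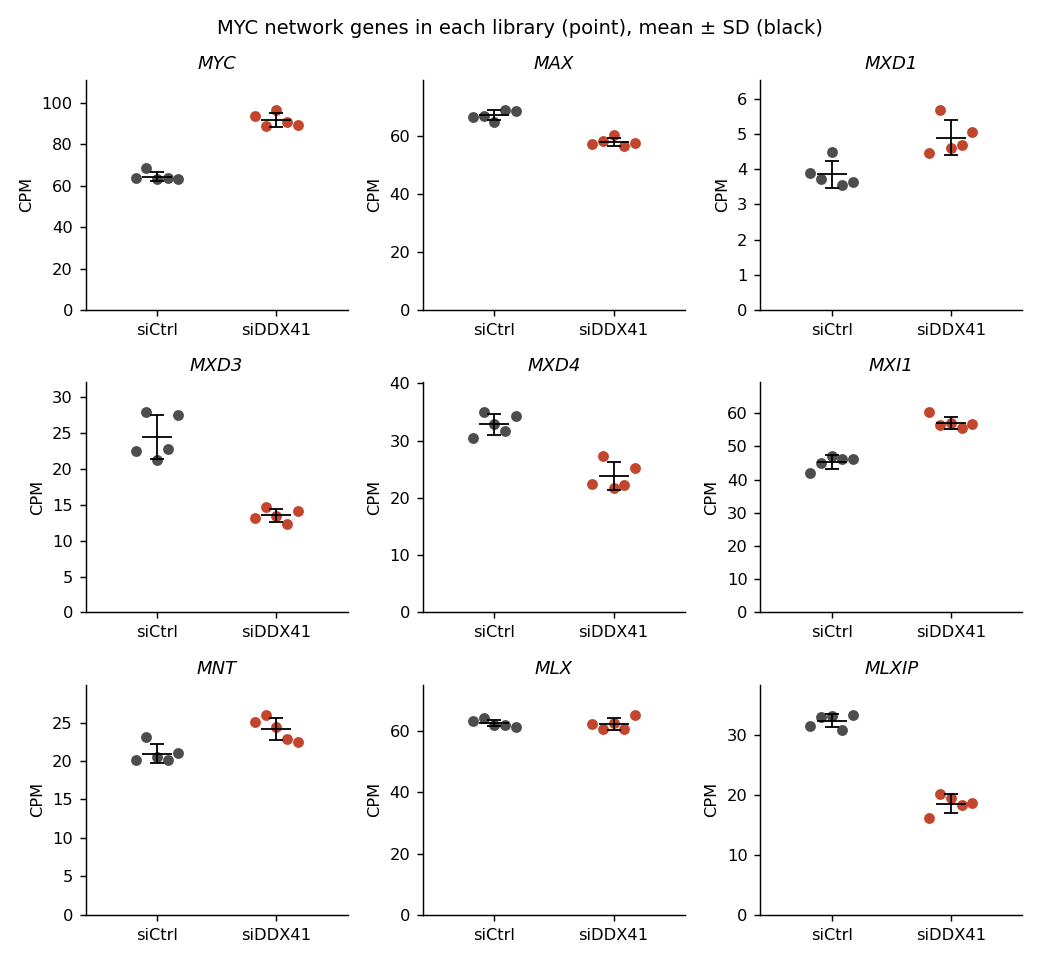
CPM of each MYC network gene (vertical axis, from 0) in the 5 siCtrl and 5 siDDX41 libraries. Each point is a library, and black bars show the mean and SD. MYC lies between 63.2 and 68.4 CPM in siCtrl and between 88.8 and 96.7 CPM in siDDX41, and MLX, MXD1 and MNT are the genes whose groups overlap.

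MYC, the activator of the network, was higher after DDX41 knockdown. Its level was 63.5, 68.4, 63.2, 63.8 and 63.2 CPM in siCtrl libraries 1 to 5 and 93.5, 88.8, 96.7, 91.0 and 89.4 CPM in siDDX41 libraries 1 to 5. The groups were far apart: 4 siCtrl libraries lay within 1 CPM of each other, siCtrl library 2 was the highest of them, and every siDDX41 library was above it. The mean rose from 64.4 ± 2.25 to 91.9 ± 3.27 CPM (SD, n = 5 each), which is 1.43-fold or 0.51 on the log2 scale (SE 0.034, adjusted p = 3.91e-14). An exact permutation of log2 CPM (two-sided) gave p = 0.00794, the smallest possible with 5 against 5 libraries, and 26.7% of all tested genes had a larger absolute change. MYC (ENSG00000136997.15) lies on the plus strand of chromosome 8 of GRCh38 from 127735434 to 127742951. The antisense gene CASC11 shares 3.18% of its exon length but had counts of only 0.0759% of those of MYC. In RNA from whole cultures, a change in the number of cells expressing a gene and a change in its RNA per cell cannot be told apart, for MYC and for each gene that follows.

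MAX, the shared partner, moved the other way and by less. Its level was 66.4, 66.9, 64.6, 68.9 and 68.5 CPM in siCtrl libraries 1 to 5 and 57.2, 58.3, 60.2, 56.4 and 57.4 CPM in siDDX41 libraries 1 to 5. The lowest siCtrl library was above the highest siDDX41 library, and both groups were tight, with a coefficient of variation of 2.57% and 2.50%. The log2 fold change was -0.21 (SE 0.033, adjusted p = 1.56e-06), and 60.8% of all tested genes changed by more. On the opposite strand, exons of FNTB, a subunit of protein farnesyltransferase, overlap 13.1% of the exon length of MAX, and FNTB was not called (log2 fold change -0.11, adjusted p = 0.0207). The strand setting of the counting is not given in the sources used here, so the counts of such pairs may share reads.

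**Figure D2:**
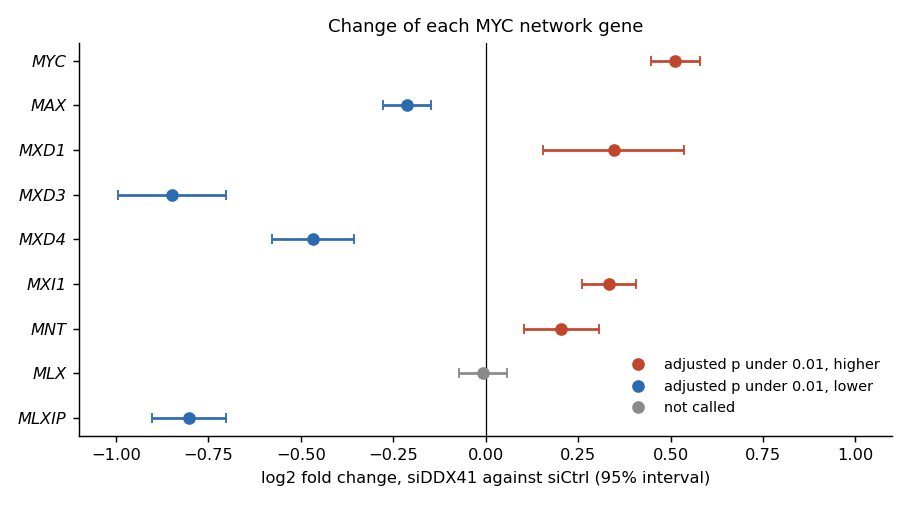
Log2 fold change (horizontal axis, siDDX41 against siCtrl) of each network gene with its 95% confidence interval, computed from 5 libraries per group. Red and blue points passed an adjusted p under 0.01 as higher and lower. MXD3 (-0.85) and MLXIP (-0.80) are farthest from 0, and the interval of MLX spans 0.

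The repressors did not move as a group. MXI1 rose, MXD3 and MXD4 fell, and MXD1 and MNT rose with overlapping groups. MXD3 had the largest estimated change of the repressors. Its level was 22.5, 27.9, 21.3, 22.8 and 27.5 CPM in siCtrl libraries 1 to 5 and 13.2, 14.7, 13.4, 12.4 and 14.1 CPM in siDDX41 libraries 1 to 5. The siCtrl libraries fell into a higher pair, libraries 2 and 5, and a lower trio, and every siDDX41 library was below that trio. The log2 fold change of MXD3 was -0.85 (SE 0.074, adjusted p = 1.41e-09), and 11.9% of all tested genes had a larger change. The exons of MXD3 overlap those of PRELID1, a mitochondrial lipid transfer protein gene on the opposite strand, over 24.2% of their length. PRELID1 had counts equal to 918% of those of MXD3 and rose (log2 fold change 0.55, adjusted p = 3.00e-16), so its direction was opposite to that of MXD3. RAB24, which overlaps MXD3 on the same strand over 19.5% of its exons, had few counts (6.40% of those of MXD3) and was not called.

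MXD4 is a repressor that is typical of differentiating cells. Its level was 30.4, 34.9, 32.8, 31.8 and 34.4 CPM in siCtrl libraries 1 to 5 and 22.4, 27.4, 21.6, 22.2 and 25.2 CPM in siDDX41 libraries 1 to 5. The groups did not overlap, and siDDX41 libraries 2 and 5 were nearest to the controls. This is a log2 fold change of -0.47 (SE 0.057, adjusted p = 4.91e-08). No exon of another annotated gene with counts overlaps MXD4.

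MXI1, also called MXD2, was the repressor that rose without overlap. Its level was 42.1, 45.0, 47.2, 46.2 and 46.2 CPM in siCtrl libraries 1 to 5 and 60.3, 56.3, 57.0, 55.5 and 56.7 CPM in siDDX41 libraries 1 to 5. Library 1 was the lowest siCtrl and the highest siDDX41 library, and the gap between the groups was wider than the range of either. MXI1 rose by 0.33 on the log2 scale (SE 0.037, adjusted p = 4.18e-09), and 43.2% of all tested genes changed by more.

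MXD1 had the fewest counts of the 9 members, at 3.88, 3.71, 4.50, 3.55 and 3.62 CPM in siCtrl libraries 1 to 5 and 4.46, 5.69, 4.60, 4.69 and 5.07 CPM in siDDX41 libraries 1 to 5. The lowest siDDX41 library, library 1, was just below the highest siCtrl library, library 3. The log2 fold change was 0.35 (SE 0.097, adjusted p = 0.00232; two-sided exact permutation p = 0.0159), and without siDDX41 library 2 it was 0.29 with an adjusted p of 0.0111, which ended the call. SNRNP27, a splicing factor gene on the same strand with 843% of the counts of MXD1, shares 3.73% of its exon length and also rose (log2 fold change 0.19), and the part of shared reads in the change of MXD1 was not tested.

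MNT, a repressor present in both resting and growing cells, was at 20.1, 23.1, 20.5, 20.1 and 21.0 CPM in siCtrl libraries 1 to 5 and at 25.03, 26.0, 24.5, 22.9 and 22.5 CPM in siDDX41 libraries 1 to 5. The siCtrl library 2 was above siDDX41 libraries 4 and 5, so the groups overlapped. The change was 0.20 on the log2 scale (SE 0.052, adjusted p = 0.000927; two-sided exact permutation p = 0.0238), and 62.1% of all tested genes changed by more.

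In the parallel arm, MLX and its partner MLXIP differed. MLX was at 63.3, 64.1, 61.9, 62.0 and 61.4 CPM in siCtrl libraries 1 to 5 and at 62.3, 60.5, 62.5, 60.5 and 65.3 CPM in siDDX41 libraries 1 to 5. The groups were interleaved. The log2 fold change was -0.01 (95% interval -0.07 to 0.06, adjusted p = 0.843), its sign turned with the scaling of the libraries, and 98.4% of all tested genes changed by more. PSMC3IP, a recombination factor gene on the opposite strand, overlaps 18.2% of its exons and had 40.3% as many counts. PSMC3IP fell (log2 fold change -0.18, adjusted p = 0.00094), and the part of shared reads in the value of MLX was not tested.

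MLXIP was at 31.5, 33.0, 33.1, 30.8 and 33.3 CPM in siCtrl libraries 1 to 5 and at 16.1, 20.1, 19.5, 18.3 and 18.6 CPM in siDDX41 libraries 1 to 5. Every siDDX41 library was far below every siCtrl library, and siDDX41 library 1 was the lowest. The mean fell from 32.3 ± 1.11 to 18.5 ± 1.54 CPM (SD, n = 5 each), or by 0.80 on the log2 scale (SE 0.051, adjusted p = 1.79e-14). The estimates for MLXIP and MXD3 differed by less than their standard errors, and 13.3% of all tested genes changed by more. No exon of another annotated gene with counts overlaps MLXIP.

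Levels of different genes can be compared only per length, as CPM per kilobase of annotated exon. On this scale MLX was the most abundant member in siCtrl, at 14.7 ± 0.260 (SD, n = 5), followed by MAX at 10.7 ± 0.276 and MYC at 10.5 ± 0.368, whose ranges over the libraries overlapped. MXI1 came next at 7.68 ± 0.337, then MXD3 at 5.14 ± 0.648 and MXD4 at 4.78 ± 0.270, which overlapped each other. MNT at 2.41 ± 0.147 and MLXIP at 2.33 ± 0.0803 also overlapped, and MXD1 was lowest at 0.607 ± 0.0600.

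In siDDX41 the order was different. MYC was first at 15.04 ± 0.536, beside MLX at 14.6 ± 0.459 with overlapping ranges, and MXI1 at 9.68 ± 0.314 was level with MAX at 9.25 ± 0.231, with ranges that overlapped. MXD4 at 3.46 ± 0.352 was above MXD3 at 2.86 ± 0.189. MNT, at 2.78 ± 0.169, overlapped MXD3, and MLXIP was at 1.33 ± 0.111 and MXD1 at 0.771 ± 0.0780. When the length of the longest transcript was used in place of all exons, MYC again stood below MAX in siCtrl and first in siDDX41, but MAX then stood above MXI1 in siDDX41 (18.3 against 16.5). With that length MXD3 stood above MXD4 in siDDX41 (5.95 against 5.62), with ranges that overlapped, so the order of MXD3 and MXD4 there depends on the length used.

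**Figure D3:**
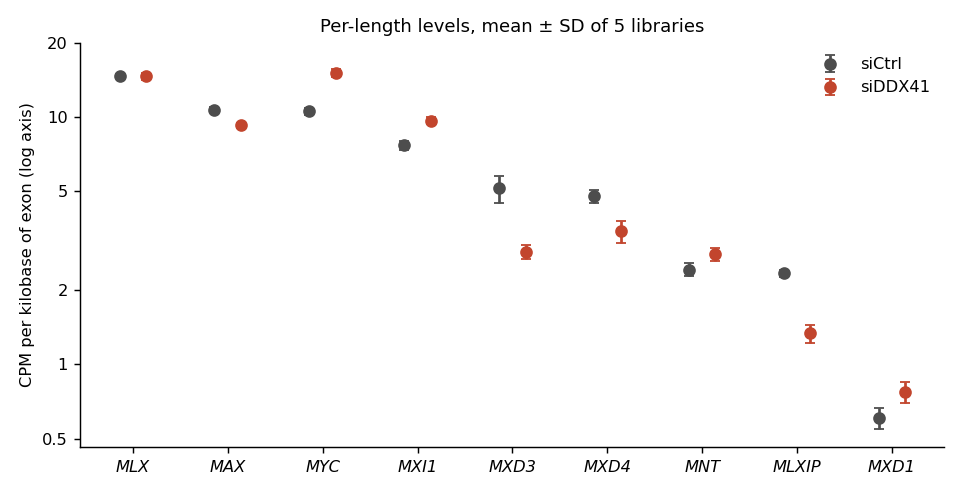
Per-length level (vertical log axis, CPM per kilobase of exon) of each network gene, ordered by its level in siCtrl. Points are means and bars are SDs of 5 libraries per group. MYC moves from below MLX and MAX (10.5) to the top (15.04), while MXD3 and MLXIP drop.

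The per-length levels of the 5 repressors summed to 20.6 ± 1.09 in siCtrl and 19.5 ± 0.714 in siDDX41 (SD, n = 5), with overlapping ranges (19.2 to 21.8 and 18.6 to 20.5). Their composition shifted. MXI1 made up 37.3% of the repressor sum in siCtrl and 49.5% in siDDX41, MXD3 made up 24.9% and 14.6%, and MXD4 made up 23.2% and 17.7%. The shares of MNT (11.7% and 14.2%) and MXD1 (2.95% and 3.94%) were smaller.

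Ratios within a library do not depend on how libraries are scaled. The ratio of MYC to the summed repressors was 0.541, 0.513, 0.509, 0.519 and 0.478 in siCtrl libraries 1 to 5 and 0.772, 0.709, 0.826, 0.801 and 0.746 in siDDX41 libraries 1 to 5. The ranges were well apart, and the mean went from 0.512 ± 0.0226 to 0.771 ± 0.0459. The ratio of MYC to MAX went from 0.984 ± 0.0423 to 1.63 ± 0.0469, and that of MLX to MLXIP from 6.31 ± 0.252 to 11.0 ± 1.08, again with no overlap between the groups. These are ratios of mRNA, computed from genes whose changes are given above, and protein amounts were not measured here.

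**Figure D4:**
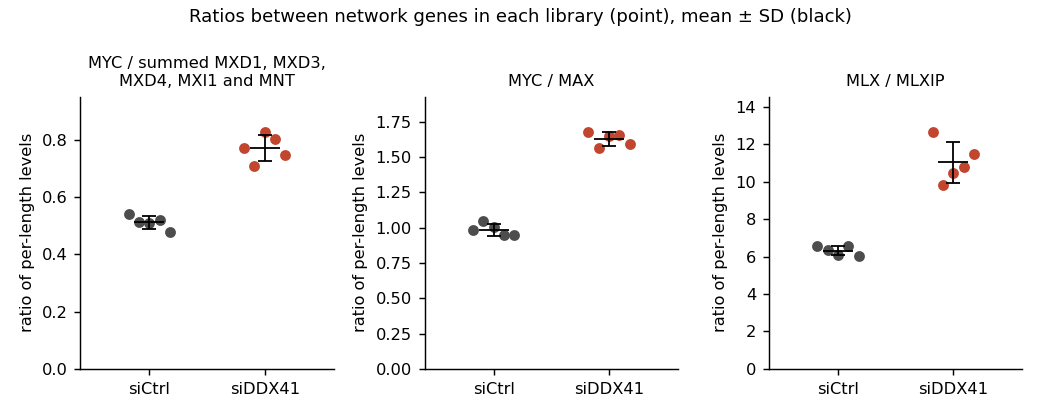
Ratios of per-length levels (vertical axes, from 0) in each library, for MYC over the summed repressors, MYC over MAX, and MLX over MLXIP. Points are libraries and black bars are mean and SD of 5 libraries per group. In each panel every siDDX41 library lies above every siCtrl library.

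Of 3 other tested genes of the network, 1 rose (MGA), 1 fell (MYCL) and MYCN was not called, with a median log2 fold change of -0.31. MYCL, a MYC paralog, was at 31.0, 27.4, 29.7, 28.0 and 28.7 CPM in siCtrl libraries 1 to 5 and at 13.7, 16.9, 14.4, 14.9 and 18.5 CPM in siDDX41 libraries 1 to 5. It fell as MYC rose, with no overlap between the groups and a log2 fold change of -0.88 (SE 0.063, adjusted p = 3.75e-12). MYCN, another paralog, was low (4.44 ± 0.353 and 3.59 ± 0.650 CPM) and was not called (log2 fold change -0.31, adjusted p = 0.0141), although it was called without siCtrl library 3 (adjusted p = 0.00943) or without siDDX41 library 2 (adjusted p = 0.00165). MGA, a large MAX partner that joins a Polycomb complex, rose from 74.3 ± 7.13 to 97.7 ± 4.00 CPM (log2 fold change 0.40, adjusted p = 5.85e-06). Its siCtrl libraries 3 and 4 (82.1 and 82.0 CPM) stood above siCtrl libraries 1, 2 and 5 (69.4, 67.9 and 70.0 CPM). Every siDDX41 library was above all of them (lowest 92.2 CPM). MLXIPL, the glucose sensor of liver and fat also called ChREBP, averaged 0.117 and 0.0338 CPM and was not tested.

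The counts of each list that follows have to be read beside the 30.3% of all tested genes called as higher and the 32.1% called as lower, so that calls in both directions are usual for a list. The SIN3 and histone deacetylase complex works with the MXD proteins. Of its 14 tested genes 5 rose (ING1, SAP30, SAP18, HDAC1 and SUDS3) and 4 fell (RBBP4, SIN3B, SIN3A and BRMS1), which is 35.7% and 28.6%, near those shares, and the median log2 fold change was 0.03, beside -0.00144 over all tested genes. Both scaffold genes fell, SIN3A by 0.23 and SIN3B by 0.46 on the log2 scale. The histone chaperone RBBP4 fell by 0.48, and ING1, a reader of methylated histone H3, rose by 0.51.

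Of 9 tested genes of the Polycomb complex that holds MGA and MAX, 4 rose (MGA, RNF2, L3MBTL2 and WDR5) and 2 fell (TFDP1 and CBX3), with a median of 0.09. RNF2, its ubiquitin ligase, rose by 0.28, and TFDP1, the E2F partner, fell by 0.42. RING1 was listed at 0 in each library, and RYBP was near 0 and not tested. How reads with several matches were counted is not given in the sources used here, and some genes that cells in general use are among those at or near 0, so these values cannot be read as absence of expression.

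Of 17 tested MYC cofactors, which include acetyltransferases, chromatin remodellers and elongation factors, 6 rose and 5 fell, with a median of 0.01. The ATPases RUVBL1 and RUVBL2, which form a ring in several chromatin complexes, rose by 0.25 and 0.55. SMARCB1, a remodeller subunit that binds MYC and is expressed in most cell types, was near 0 and not tested, a value with the same limit as those of RING1 and RYBP.

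Among 18 genes for enzymes and cofactors that set the life of the MYC protein, 7 rose and 4 fell, with a median of 0.06. PLK1 fell from 172 ± 6.96 to 104 ± 4.52 CPM (log2 fold change -0.73), SKP2 by 0.55 and AURKA by 0.51. PLK1 and AURKA are mitotic kinases that stabilise MYC or MYCN, and SKP2 is the substrate receptor of a ubiquitin ligase, and each of the 3 is also a cell cycle gene. FBXW7, the receptor of the ligase that marks phosphorylated MYC for degradation, rose by 0.63, and STUB1, another ubiquitin ligase, also by 0.63, both chosen after their values were seen. MYC protein itself was not measured.

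**Figure D5:**
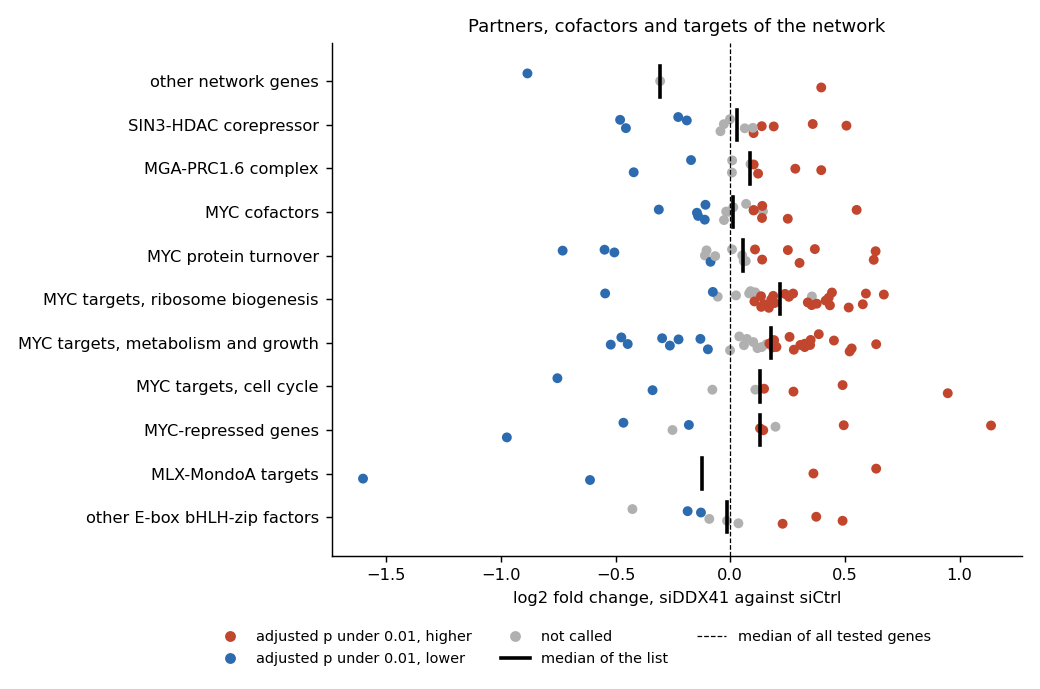
Log2 fold change (horizontal axis, siDDX41 against siCtrl) of each tested gene in 11 lists of network genes, cofactors and targets. Each point is a gene, colours give the call, thick bars are the medians of the lists and the dashed line is the median of all tested genes. The medians of ribosome biogenesis targets (0.22), metabolism targets (0.18), cell cycle targets (0.13) and MYC-repressed genes (0.13) are among those to the right of it.

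Genes of ribosome biogenesis are among the best known MYC targets. Of 30 tested, 22 rose and 2 fell (TCOF1 and NPM1), 73.3% and 6.67% beside 30.3% and 32.1% of all tested genes, and the median was 0.22. A rise of ribosome biogenesis genes was already known in these data when the list was chosen, so it is no independent evidence. WDR43, a subunit of the early pre-ribosome, rose from 102 ± 2.27 to 154 ± 5.47 CPM (log2 fold change 0.59), and NOP2, an rRNA methyltransferase, rose by 0.52. TCOF1, a nucleolar cofactor of RNA polymerase I, fell by 0.55, and NPM1 (log2 fold change -0.08) kept its call in only 3 of 17 other settings. FBL, the nucleolar methyltransferase that every growing cell uses, was listed at 0 in each library and was not tested, so its 0 does not show that it was not expressed.

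Of 34 tested MYC targets in metabolism and growth, 18 rose and 8 fell, with a median of 0.18. CAD, which starts pyrimidine synthesis, rose from 172 ± 2.705 to 246 ± 5.65 CPM (log2 fold change 0.52), and ODC1, the first enzyme of polyamine synthesis, from 324 ± 10.1 to 467 ± 19.9 CPM (log2 fold change 0.53). IMPDH2, the rate-limiting enzyme of guanine nucleotide synthesis, fell by 0.48.

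Of 8 tested cell cycle targets, 4 rose (CCND2, TFAP4, CDC25A and CDK4) and 2 fell (E2F1 and MCM4), with a median of 0.13. CCND2, a D-type cyclin, was at 274, 252, 272, 271 and 257 CPM in siCtrl libraries 1 to 5 and at 527, 503, 515, 501 and 513 CPM in siDDX41 libraries 1 to 5. Every siDDX41 library was far above every siCtrl library, with a log2 fold change of 0.95 (SE 0.028, adjusted p = 2.16e-22). E2F1 fell by 0.75 and the replicative helicase gene MCM4 by 0.34. E2F2 was listed at 0 in each library, with the limit given for RING1, and TERT was near 0.

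Of 9 tested genes that MYC is known to repress, 4 rose (GADD45A, CDKN1A, THBS1 and NDRG1) and 3 fell (PDGFRB, NDRG2 and CDKN1B), 44.4% and 33.3% beside 30.3% and 32.1% of all tested genes, with a median of 0.13. GADD45A, a gene of the DNA damage response, was at 35.2, 34.4, 31.4, 34.2 and 33.5 CPM in siCtrl libraries 1 to 5 and at 77.7, 69.8, 77.0, 74.3 and 72.2 CPM in siDDX41 libraries 1 to 5. Its libraries were far apart between groups (log2 fold change 1.14, SE 0.039, adjusted p = 9.54e-21). CDKN1A, the p21 inhibitor of cyclin-dependent kinases, rose by 0.49, whereas the receptor gene PDGFRB fell by 0.97. CDKN1C was listed at 0 in each library, again with that limit, and CDKN2B was below the filter.

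The genes best known to depend on MLX and MLXIP are few, and all 4 on the list were called, beside 62.4% of all tested genes. TXNIP, which restrains glucose uptake, was at 29.1, 29.1, 35.3, 25.8 and 29.6 CPM in siCtrl libraries 1 to 5 and at 10.7, 11.0, 9.39, 8.26 and 9.75 CPM in siDDX41 libraries 1 to 5. Every siDDX41 library was below every siCtrl library by a wide margin, and the log2 fold change was -1.60 (SE 0.083, adjusted p = 4.56e-12). ARRDC4, the arrestin-like relative of TXNIP, fell from 7.94 ± 0.591 to 5.203 ± 0.616 CPM (log2 fold change -0.61) and was named after its values were seen. HK2, a hexokinase gene that is also a MYC target, rose by 0.64, and KLF10, a zinc finger factor, rose by 0.36. Of the 4, 2 rose and 2 fell (median log2 fold change -0.12), with the arrestin pair lower and the others higher.

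Other factors with the same domain that bind E boxes were read for comparison. Of 9 tested, 3 rose (TFE3 by 0.37, TFAP4 by 0.49 and SREBF2 by 0.23 on the log2 scale), 2 fell (USF2 and SREBF1), and the median was -0.01. Some genes stand on more than 1 list (MGA, WDR5, HK2 and TFAP4), so the lists are not independent.

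Promoter sequence was read from RefSeq (GRCh38.p14), in windows from 250 bases before to 50 bases after each annotated start. The E box CACGTG, which reads the same on both strands, is in 7.26% of all 35116 windows, and in at least 1 window of 12.1% of 11487 tested genes, 13.3% of those that rose and 11.0% of those that fell. Of the 9 members, 8 have a window, and MXD4, MNT and MLX hold the E box. MYC is the member without a window, so its promoter was not searched. The related hexamer CACGAG, searched on both strands, which carries 1 base change from the E box, is in 6.78% of all windows and in none of the 8 members. The stretches around the E box of these 3 members are shown because 1 of them fell, 1 rose and 1 was not called. Each is upstream of the annotated start and is written 5′ to 3′ on the strand of the gene, with the E box in capitals.
MXD4 (chr4:2262322-2262359, minus strand, E box at position -238 from the start): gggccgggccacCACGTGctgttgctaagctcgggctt
MNT (chr17:2401228-2401273, minus strand, E box at position -193): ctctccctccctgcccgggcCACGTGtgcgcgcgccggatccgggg
MLX (chr17:42567030-42567075, plus strand, E box at position -50): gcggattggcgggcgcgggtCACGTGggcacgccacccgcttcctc

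A rise, a fall and no call are thus found beside the same letters, and a match is a description of the window only. Among ribosome biogenesis targets, 12 of 24 genes with a window hold the E box, and of these 9 rose and 0 fell, while of the 12 without it 9 rose and 1 fell. Among metabolism targets, 14 of 28 hold it, of which 8 rose and 3 fell, and of the 14 without it 9 rose and 3 fell. Within each list, genes with and without the E box therefore rose in similar numbers.

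Of the 4 genes on the list of MLX and MLXIP targets, 3 have a window, and KLF10 has none. These 3 and the MYC target ODC1 are shown next, because each was called and holds a motif upstream of its start. The capitals mark CACGTG in HK2, ARRDC4 and ODC1 and CACGAG in TXNIP, which has it at positions -88 and -77. HK2 has another E box at position -149 and ODC1 another at position 5, after its start, both outside the stretches shown. TXNIP and ARRDC4 fell, and HK2 and ODC1 rose.
TXNIP (chr1:145996642-145996687, minus strand): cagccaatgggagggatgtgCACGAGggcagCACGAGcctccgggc
ARRDC4 (chr15:97960473-97960518, plus strand, E box at position -210): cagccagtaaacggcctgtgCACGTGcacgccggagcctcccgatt
HK2 (chr2:74834956-74835001, plus strand, E box at position -194): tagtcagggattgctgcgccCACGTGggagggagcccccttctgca
ODC1 (chr2:10448016-10448061, minus strand, E box at position -29): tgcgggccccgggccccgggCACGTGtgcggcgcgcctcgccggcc

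The genes whose pattern over the 10 libraries was most like that of MYC were sought among 11240 genes with a mean of at least 5 CPM. By Pearson correlation of log2 CPM they were PPARGC1B (0.997), UNKL (0.996), SFT2D1 (0.996), EIF3J (0.995) and GFOD1 (0.995). These values mostly reflect the shared difference between the groups, since 2571 genes had a correlation above 0.9 and 2792 below -0.9. With the group means removed, the correlations were 0.926, 0.873, 0.904, 0.820 and 0.848 in the same order. By these values the 5 genes ranked 2, 17, 7, 50 and 29 among the 11240. The 5 were picked on the same libraries, which favours high values, so the correlations are a description only. In siCtrl, library 2 was the highest for MYC and for each of the 5 genes. PPARGC1B, a coactivator of mitochondrial genes, rose from 5.91 to 14.6 CPM, and EIF3J, a translation initiation factor gene, from 119 to 164 CPM.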

How the data were processed

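Single reads from stranded libraries of polyadenylated RNA were aligned by the authors with STAR 2.7 (hg38, GENCODE release 25). Per gene, they were summed with featureCounts 1.6, and the deposited tables hold these whole counts as they are. Whether strand was used in counting, and what was done with reads of several matches, is not given in the sources used here. Identifiers without version were matched to GENCODE release 44 on the same build (98.7% of tested genes), which also gave positions and exon lengths.

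The comparison used edgeR 4.0.16 in R 4.3.3, with filterByExpr, TMM scaling and the robust quasi-likelihood test (Benjamini-Hochberg adjustment over 16143 genes, adjusted p under 0.01, the threshold of the study). Standard errors were derived from the F statistic. The common biological coefficient of variation was 3.65%. Library pairs of a group differed by more than sampling noise (chi-square per degree of freedom 1.83 to 6.22 over 20 pairs). Permutation tests of 5 against 5 libraries were exact and two-sided, in Python 3.11.15 with scipy 1.17.1. In counts simulated for this comparison with 200 genes changed 1.5-fold, 149 (74.5%) were recovered among 15859 genes.

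Genes named are the members, DDX41, up to 3 genes per list with the smallest adjusted p, and the 5 genes most like MYC. A result under this rule is not reported here. Marker genes and genes listed to account for a small count are named too, the latter after their values were seen. The members and lists were chosen with earlier results of these data known. Alternatives were DESeq2 1.42.0 (size factors, and its Wald test), upper quartile factors, other filters and thresholds, the replicate number as a block, the longest transcript as length, and leaving out each library.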

Additional observations from a re-analysis of the deposited data

Results flagged for a closer look

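In 122 groups of 5 libraries (61 named genes in siCtrl and siDDX41), 10 held a library far from the other 4, where chance gives about 1 in 20. In siCtrl library 2, MYC was high at 68.4 CPM (others 63.2 to 63.8), ING1 was high at 17.3 CPM (others 15.6 to 16.0), PPARGC1B was high at 6.57 CPM (others 5.71 to 5.80), and SPARC was low at 2750 CPM (others 2812 to 2833). In siCtrl library 3, SIN3B was low at 36.8 CPM (others 40.4 to 41.8), AURKA was low at 162 CPM (others 173 to 176), and CDKN1A was low at 145 CPM (others 156 to 159). In siCtrl library 5, CBX3 was low at 482 CPM (others 491 to 494). In siCtrl library 1, KLF10 was high at 105 CPM (others 95.7 to 97.3). In siDDX41 library 2, RUNX2 was high at 26.1 CPM (others 24.1 to 24.4).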

How the results depend on the processing

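Of the 9 network genes, MYC (0.50 to 0.53), MAX (-0.23 to -0.20), MXD3 (-0.90 to -0.80), MXD4 (-0.52 to -0.43), MXI1 (0.31 to 0.35), MNT (0.18 to 0.24) and MLXIP (-0.83 to -0.76) kept their direction and call in each of 17 other settings, with the log2 fold changes given. A minimum of 0.25 for the absolute log2 fold change, not counted among the 17, ended the calls of MAX and MNT and left 3 members higher and 3 lower. The call of MXD1 was lost without siDDX41 library 2 (0.29, adjusted p = 0.0111) and its range without 1 library was 0.29 to 0.41, and it was not among the genes with at least 5 CPM in 5 libraries. MLX, not called in any setting, changed sign with upper quartile factors (0.0089) and with DESeq2 (0.0019), and lay between -0.023 and 0.0050 without 1 library. Over all genes, 4648 to 4823 were called as higher and 4968 to 5121 as lower without 1 library, and the median log2 fold change of all tested genes stayed between -0.00296 and 0.0151. The replicate number as a block (a replicate block) gave 4790 higher and 5097 lower, and its effect on the list counts was 1 ribosome biogenesis gene called as lower in place of 2. Same-numbered libraries did not deviate together (correlations -0.0475 to 0.0391, mean 0.0031), so the numbers were not taken as pairs. Counts at low levels limit MXD1 and the markers. With an absolute log2 fold change of at least 0.25, 3406 of the 16143 tested genes were called as higher and 4101 as lower. List counts at this minimum were 2 higher and 2 lower for the SIN3 complex, and 2 and 1 for the Polycomb complex. They were 2 and 1 for MYC cofactors, 5 and 3 for MYC protein turnover, and 13 and 1 for ribosome biogenesis. Metabolism targets had 12 higher and 5 lower, cell cycle targets 3 and 2, and MYC-repressed genes 2 and 2. Other E-box factors had 2 higher and 0 lower. Other network genes kept 1 and 1, and MLX and MLXIP targets 2 and 2. MYC cofactors called as lower numbered 3 with upper quartile factors and with DESeq2, and 3 to 5 without 1 library. Calls as higher also moved without 1 library, to 5 to 7 for MYC cofactors and 4 to 6 for the SIN3 complex. They numbered 21 to 24 for ribosome biogenesis, 17 to 18 for metabolism and 3 to 4 for the Polycomb complex. Ribosome biogenesis genes called as lower numbered 1 with DESeq2 size factors, with upper quartile factors, with DESeq2's test and with no filter, and 1 to 2 without 1 library, in each case through the loss of NPM1, which kept its call in 3 of 17 settings. Other network genes called as lower numbered 2 at an adjusted p under 0.05 and 1 to 2 without 1 library, through MYCN, and other E-box factors 1 to 2 without 1 library. Of 52 further named genes, 48 kept direction and call in those of the 17 settings in which they were tested, while the minimum of 0.25 ends the call of each with a smaller change (CBX3, SIN3A, SREBF2, SPARC and VIM among them), and CDH1, not called, lay between -0.055 and 0.17 without 1 library. Apart from these stated filters and left-out libraries, the cause of the differences was not tested.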
